A study of Mus musculus with 2 samples.

Results

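The 36 genes described here encode heat-shock proteins, their co-chaperones and the factors that switch them on. They were taken by symbol from the 32285 genes of the count tables. The products of 25 of them work in the cytosol, those of 3 in mitochondria and those of 6 in the endoplasmic reticulum (ER), and the other two, Hsf1 and Hsf2, are transcription factors. They were chosen by function, after their UMI counts in cell classes of both libraries had been seen, so their ratios between genotypes are given as a description and no test is made on them.

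The mice had received carbon tetrachloride (CCl4), which injures hepatocytes and causes fibrosis, by intraperitoneal injection over 8 weeks. Single-cell RNA sequencing in droplets (10x Genomics Chromium 3′ chemistry) was done on their hepatic non-parenchymal cells, the fraction from which hepatocytes are removed. There was 1 library from Mfap2+/+ animals (wild type) and 1 from Mfap2-/- animals (knockout). Both groups received CCl4, and animals without CCl4 are not analysed here. The product of Mfap2 is a microfibril-associated glycoprotein of the extracellular matrix. The labels do not give the strain, the age, the way the allele was made or the number of animals in a library. With 1 library per genotype, the genotype, the animals and the preparation of the cells cannot be told apart. The intervals below are 95% intervals and cover counting error only.

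Chaperones keep other proteins folded. HSP70 proteins bind unfolded stretches, J-domain proteins deliver clients to them, and BAG and HSP110 proteins release the bound nucleotide so that the cycle can begin again. HSP90 acts later, on proteins close to their final shape, and small heat-shock proteins hold unfolded proteins in a soluble form. In stressed cells heat-shock factor 1 binds heat-shock elements in the promoters of many cytosolic and mitochondrial chaperones. Unfolded proteins inside the ER act through other factors, which bind ER stress response elements.

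Promoter sequence is shown first, for members whose values are the base of the sections that follow, because the choice of the genes did not use it. The choice went by function, however, and heat-shock elements are known in many chaperone promoters. A share above that of all genes is therefore no independent result. The stretches printed were picked from members with a match. RefSeq windows on GRCm38.p6 were at hand for 30 of the 36 members, and the 250 bases before each start were searched on both strands. Not matched were Hspa8, Hsp90aa1, Hsp90ab1, Cryab, Hspa9 and Hsf1. The first motif was the core of the heat-shock element, GAANNTTC or TTCNNGAA. It was in at least 1 window of 10 of the 30 members (33.3%) and of 14.5% of all 27025 genes in the table. Hspa1a (chr17:34972157-34972306, minus strand) and Hspa1b (chr17:34959239-34959388, minus strand) encode the stress-inducible HSP70. Their stretches of 150 bases before the start are identical at 149 positions. The stretch of Hspb1 (chr5:135887769-135887918, plus strand), which encodes the small heat-shock protein HSP27, holds the core at 2 places. Each sequence reads 5′ to 3′ along the gene, with the motif in capitals.
Hspa1a: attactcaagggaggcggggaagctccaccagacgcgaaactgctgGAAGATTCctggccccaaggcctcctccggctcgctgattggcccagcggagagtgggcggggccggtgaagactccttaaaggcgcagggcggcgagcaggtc
Hspa1b: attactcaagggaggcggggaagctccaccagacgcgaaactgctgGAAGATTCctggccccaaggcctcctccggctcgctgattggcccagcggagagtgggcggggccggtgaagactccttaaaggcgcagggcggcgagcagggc
Hspb1: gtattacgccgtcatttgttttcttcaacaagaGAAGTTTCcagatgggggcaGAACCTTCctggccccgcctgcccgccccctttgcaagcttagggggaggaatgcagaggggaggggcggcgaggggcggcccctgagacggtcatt

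Shorter stretches of 30 bases are given where the motif lies inside or next to an annotated exon. Hsph1 encodes the HSP110 protein HSPH1, and its stretch lies at chr5:149636352-149636381 on the minus strand, where 1 core is in capitals. Hspe1 and Hspd1 encode the small and the large ring of the mitochondrial chaperonin, and are read in opposite directions from starts 95 and 216 bases apart, the second distance being that to another annotated start of Hspd1. The stretch at chr1:55088053-55088082, given on the plus strand, lies before the start of Hspe1, between it and the second start of Hspd1, and inside an annotated exon of Hspd1. It holds 3 overlapping matches of the core, while the window of the other Hspd1 start holds 0. The longer form of the element, in which the core is followed after 2 further bases by another GAA or TTC in alternation, was in windows of Hspd1, Hspe1 and Dnajb6, 3 of 30 members, and of 0.514% of all genes.
Hsph1: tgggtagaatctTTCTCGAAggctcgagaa
Hspe1 and Hspd1: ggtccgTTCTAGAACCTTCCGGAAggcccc

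The second motif, the ER stress response element (CCAAT, then 9 bases of any kind, then CCACG), was found in windows of 3 members, Hspa5, Hsp90b1 and Dnajc3, and in those of 0.130% of all genes. Hspa5 encodes the ER HSP70, BiP, and its stretch of 30 bases lies at chr2:34772020-34772049 on the plus strand. Hsp90b1 encodes the ER HSP90, GRP94. Its stretch of 150 bases at chr10:86705525-86705674, read on the minus strand, holds the motif at 2 places, the second in the reverse orientation. The capitals mark the paired ends of the motif. A match describes the letters of a window and says nothing about binding.
Hspa5: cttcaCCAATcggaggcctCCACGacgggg
Hsp90b1: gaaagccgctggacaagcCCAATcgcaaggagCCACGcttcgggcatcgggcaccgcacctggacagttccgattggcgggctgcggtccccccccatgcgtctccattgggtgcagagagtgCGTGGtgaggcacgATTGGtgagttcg

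The wild-type library held 11783 cell barcodes with 82499307 unique molecular identifiers (UMIs, tags that count single RNA molecules) and the knockout library 12872 with 118226367. The median per barcode was 4685 UMIs in wild type and 6511 in knockout, and 40 barcode sequences occurred in both libraries. Cells were put into 10 classes by fixed marker genes, which took 63.9% of the wild-type and 64.1% of the knockout cells kept. The macrophage-like class held 2528 and 2432 cells, the endothelial-like class 1105 and 1512, and the smallest, type 1 dendritic-like, 91 and 117. Mfap2 itself had 120 UMIs in wild-type mesenchymal-like cells (47.7 CPM, UMIs per 1000000 UMIs of the class) and 2 in knockout ones (0.632 CPM). Other values differed between the libraries in the same classes as the members. Some class markers did, in both directions. Cd5l had 2801 CPM in wild-type and 1269 CPM in knockout macrophage-like cells, and C1qb 2949 and 2853 CPM. Mesenchymal-like cells had 9898 and 5337 CPM of Dcn, but 906 and 1450 CPM of Col1a1. Chil3 had 866 and 368 CPM in classical monocyte-like cells. These markers were picked after their values were seen. Whether a class holds the same mix of cells in both libraries was not tested. The share of ribosomal protein UMIs was lower in knockout in all 10 classes (12.4% and 9.30% in macrophage-like cells). The nuclear RNA Neat1 was higher in all 10 (1974 and 3141 CPM there), and Malat1 in 9, the exception being type 1 dendritic-like cells. For Neat1 in NK or type 1 innate lymphoid-like cells (438 and 464 CPM) the interval of the log2 ratio held 0 (-0.09 to 0.25). The 8 hepatocyte markers summed to between 0 and 15.2 CPM over the wild-type classes and to between 7.01 and 31.5 CPM over the knockout classes, and were higher in knockout in all 10. In macrophage-like cells none of the 8 was at 0 in either library and their sum was 3.26 CPM in wild type and 31.5 CPM in knockout. Erythroid markers went the other way: the sum of 7 was lower in knockout in 8 classes, and haemoglobin RNA in 9 (1018 and 371 CPM in macrophage-like cells). The part of these differences in the results below was not tested.

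Levels are given as CPM, computed from the UMI sum of a gene in all cells of 1 class and library. A ratio is log2(knockout/wild type), where both sums were first raised by 1 count, so that 1 is a 2-fold higher and -1 a 2-fold lower level in knockout. The data count RNA near its 3′ end, and levels are compared between libraries and classes but not between genes. Of the 36 members, 32 had at least 20 UMIs over both libraries in every class, and the other 4 in some classes only (Dnaja4, Cryab and Serpinh1 in 9, Hspb8 in 3). That left 350 pairs of a gene and a class. Exons of 9 members overlap those of a gene on the opposite strand in GENCODE M21, among them Dnaja1 (Smu1 and Gm6297), Dnaja4 (Wdr61), Hspa1a (Gm20481), Cryab (Hspb2) and Hsp90b1 (1810014B01Rik), and exons of 5 overlap a gene on the same strand, among them Hspa8 and Hsp90b1. Their counts are uncertain to that extent.

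In macrophage-like cells 12 of the 36 members were at least 2-fold higher in knockout and none was 2-fold lower. Over all 15825 genes with enough UMIs in these cells 6.53% were at least 2-fold higher and 1.3% at least 2-fold lower. The median ratio of the members was 0.57 and that of all genes 0.14 (over the 10 classes, that of all genes ran from -0.03 to 0.17). The members did not differ alike: the 25 cytosolic members had a median of 0.76, the 3 mitochondrial members one of 0.89 and the 6 ER members one of 0.14. Summed over members, the cytosolic group went from 9854 CPM in wild type to 19023 CPM in knockout.

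Fewer members were past 2-fold in the other classes. In endothelial-like cells 7 of 36 members were at least 2-fold higher, against 3.69% of all genes. The count was 10 of 34 in classical monocyte-like cells (4.74% of all genes), or 9 without Hspb1, whose direction there turned under other settings, 7 of 35 in patrolling monocyte-like cells (4.42%) and 10 of 35 in neutrophil-like cells (8.75%). In type 1 dendritic-like cells it was 9 of 35 (5.46%). Among lymphocytes it was 8 of 35 in B-like cells (4.49%), 6 of 35 in T-like cells (4.87%) and 4 of 33 in NK or type 1 innate lymphoid-like cells (4.91%). Mesenchymal-like cells had the lowest count, 3 of 36 (5.93%). In cells without a class it was 6 of 36 (5.13%). A 2-fold lower level was seen for 1 pair of a member and a class, Hsf2 in classical monocyte-like cells, where 1.37% of all genes were that low. In the other classes no member was, against 1.58% of all genes in patrolling monocyte-, 1.51% in neutrophil-, 1.43% in type 1 dendritic-, 1.57% in B-, 1.35% in T-, 1.71% in NK or type 1 innate lymphoid-, 2.3% in endothelial- and 1.97% in mesenchymal-like cells, and 2.24% in cells without a class. Of 73 pairs past 2-fold among the 21 members named by rule, 22 were under 2-fold with at least 1 other setting of the gate, the cells or the scaling.

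**Figure D1:**
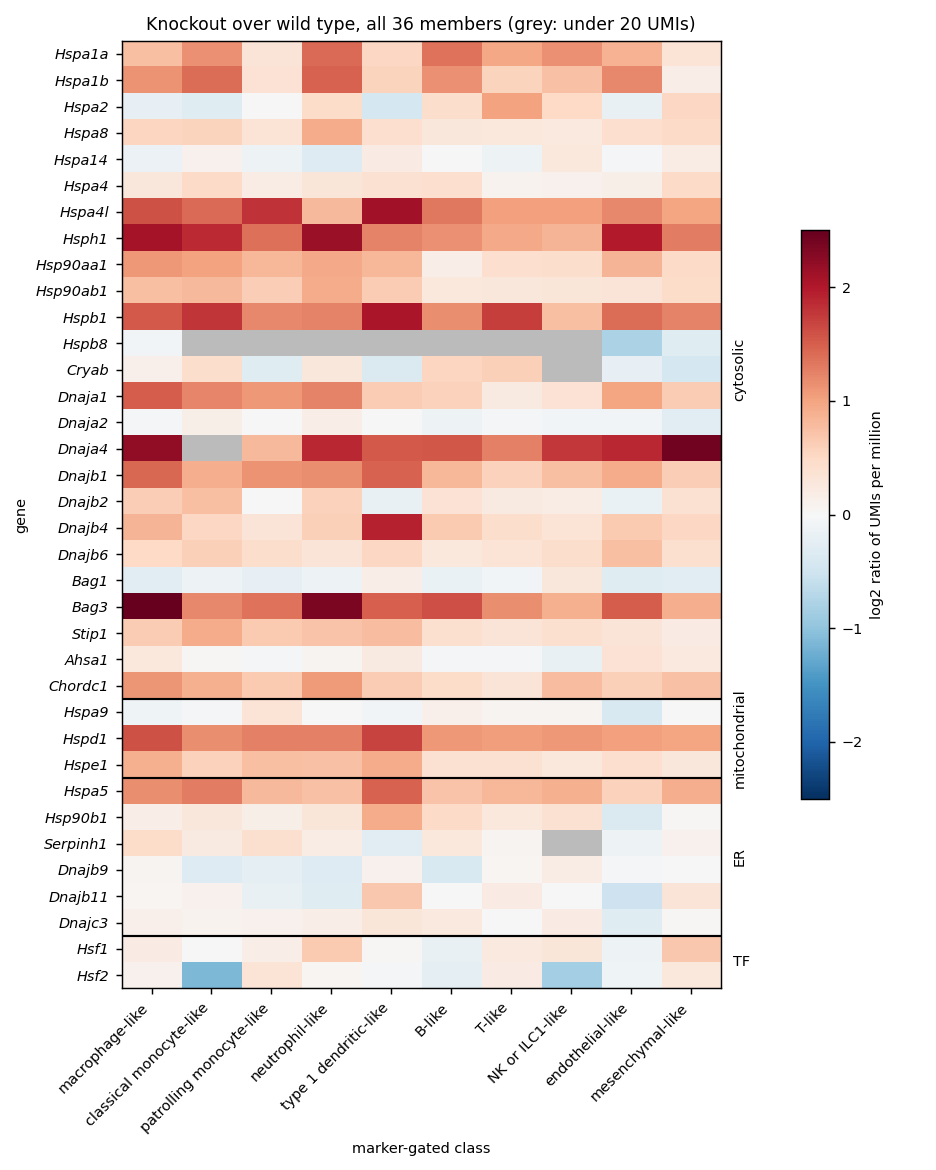
Log2 ratio of CPM, knockout over wild type, for the 36 members (rows) in 10 marker-gated classes (columns), in red where knockout was higher and in blue where it was lower. Grey cells had fewer than 20 UMIs over both libraries. Bag3, Hsph1, Hspb1, Dnaja4, Hspa4l and Hspd1 form the darkest rows.

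The stress-inducible HSP70 genes Hspa1a and Hspa1b were higher in knockout in all 10 classes, with very different ratios, except that Hspa1b in mesenchymal-like cells (0.16) was at -0.06 when CPM were averaged over cells and at -0.04 when cells were thinned to 1000 UMIs. Their messenger RNAs are near-identical copies, so the split of UMIs between them is uncertain, and their sum is given first. In macrophage-like cells the sum was 3103 CPM in wild type and 5990 CPM in knockout, a ratio of 0.95 (0.94 to 0.96). In neutrophil-like cells, where wild-type cells had 620 CPM, the knockout level was 1698 CPM and the ratio the largest of the 10, 1.45 (1.38 to 1.52). The 3 smallest ratios belonged to the 3 classes with the highest wild-type levels. The wild-type level is also the denominator of the ratio, so the 2 orders are not independent. Patrolling monocyte-like cells had 5441 and 6956 CPM (ratio 0.35), type 1 dendritic-like cells 5027 and 7328 CPM (0.54) and mesenchymal-like cells 4015 and 4750 CPM (0.24). Taken singly, Hspa1a ranged over classes from 0.33 to 1.42 and Hspa1b from 0.16 to 1.48.

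Hspa8 encodes the constitutive HSP70, HSC70, which folds proteins in unstressed cells. Its level in macrophage-like cells was 2143 CPM in wild type and 3091 CPM in knockout, a ratio of 0.53 (0.51 to 0.54). In every class the knockout level was higher and in none by 2-fold. The ratios ran from 0.24 in NK or type 1 innate lymphoid-like cells to 0.92 in neutrophil-like cells (777 and 1469 CPM). The other HSP70 members, Hspa2 and Hspa14, were counted at low levels. Hspa2 reached 2-fold in 1 class, T-like cells, on 16 and 53 UMIs (ratio 1.01, 0.24 to 1.97). The ratios of Hspa14 lay between -0.32 and 0.27.

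The HSP110 members, which exchange the nucleotide of HSP70, included genes with some of the highest ratios. Hsph1 in macrophage-like cells had 286 CPM in wild type and 1218 CPM in knockout, a ratio of 2.09 (2.05 to 2.13). Endothelial-like cells had 312 and 1230 CPM (ratio 1.98), and neutrophil-like cells 77.3 and 345 CPM (2.15). The counting intervals of both libraries were apart in all 10 classes. The ratio was below 1 in T-like cells (660 and 1265 CPM, 0.94) and in NK or type 1 innate lymphoid-like cells (500 and 903 CPM, 0.85). Knockout levels of Hsph1 were between 1218 and 1303 CPM in macrophage-, endothelial-, mesenchymal-, B-, T- and type 1 dendritic-like cells, where wild-type levels ran from 286 to 660 CPM. These classes were grouped after their values were seen, and the others were lower in knockout cells. Beside the 345 and 903 CPM above, the sum of all HSP110 members was 644 CPM in classical and 1094 CPM in patrolling monocyte-like knockout cells.

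Hspa4l, another HSP110 gene, was counted less often and had ratios from 0.80 to 2.11. In type 1 dendritic-like cells it had 31 UMIs in wild type (21.8 CPM) and 248 in knockout (96.6 CPM), a ratio of 2.11 (1.60 to 2.73). With thinned cells this ratio was 0.86, and 5 cells held 45.2% of the wild-type UMIs. In macrophage-like cells its levels were 24.9 and 75.1 CPM (1.59, 1.46 to 1.72). Hspa4, the third gene of the family, stood apart from both, with ratios between 0.10 and 0.49.

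Both cytosolic HSP90 genes were higher in knockout in all 10 classes. Hsp90aa1, the inducible form, had 865 and 1837 CPM in macrophage-like cells (ratio 1.09, 1.06 to 1.11) and 564 and 1135 CPM in classical monocyte-like cells (1.01). These were the only classes in which it reached 2-fold, and with other settings the ratios were as low as 0.95 and 0.82. In B-like cells its levels were 1902 and 2123 CPM, a ratio of 0.16. Hsp90ab1, the constitutive form, reached 2-fold in no class. Its levels were 1486 and 2518 CPM in macrophage-like cells (0.76) and its ratios ran from 0.26 in B-like cells to 0.92 in neutrophil-like cells.

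Of the genes whose products bring clients to HSP90 or tune it, Chordc1 was at least 2-fold higher in 2 classes. In macrophage-like cells it had 52.0 CPM in wild type and 112 CPM in knockout (ratio 1.11), and in neutrophil-like cells 26.4 and 55.8 CPM (1.07). Stip1, which bridges HSP70 and HSP90, had ratios between 0.20 and 0.93. Ahsa1, an activator of the HSP90 ATPase, lay between -0.19 and 0.36. Hspa2, Hspa14, Hspa4, Chordc1, Stip1, Ahsa1 and the J-domain, BAG and small heat-shock members outside the naming rule were singled out after their values were seen.

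The J-domain proteins stimulate the ATPase of HSP70, and their genes had a wide range of ratios. Dnaja1 had 561 CPM in wild-type and 1595 CPM in knockout macrophage-like cells, a ratio of 1.51 (1.48 to 1.53). Dnajb1, the partner of inducible HSP70, had 307 and 829 CPM (1.43, 1.40 to 1.47). Both were higher in knockout in all 10 classes and both were lowest in T-like cells, at 0.22 (1424 and 1660 CPM) and 0.59 (494 and 741 CPM).

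Dnaja4 was a gene of low level with high ratios. It had 50 UMIs in wild-type and 288 in knockout macrophage-like cells (2.06 and 9.69 CPM, ratio 2.21, 1.79 to 2.69), and the ratio was 3.09 with a stricter gate (4 markers and a lead of 3) and lower than 2.21 with a looser gate (a lead of 1 marker). In mesenchymal-like cells it had 35 and 240 UMIs (13.9 and 75.8 CPM, 2.41, or 1.37 with thinned cells). In endothelial-like cells the ratio of 1.88 was 0.60 with thinned cells. In patrolling monocyte-like cells, on 10 and 32 UMIs, the interval of its ratio of 0.81 reached from -0.16 to 2.09. T-like cells had the highest wild-type level of this gene, 45.8 CPM, and reached 110 CPM in knockout.

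Of the other J-domain members, Dnajb4 had ratios from 0.32 to 0.66 outside 2 classes: in macrophage-like cells it stood at 0.85 (54.5 and 98.6 CPM), and in type 1 dendritic-like cells at 1.93 on 9 and 68 UMIs. Dnajb6 lay between 0.25 and 0.74 and was above 0 in all 10 classes. Dnajb2 ran from -0.18 to 0.76. Dnaja2, which like Dnaja1 is a J-domain protein of the first class, stayed between -0.28 and 0.16, with 161 and 155 CPM in macrophage-like cells.

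Bag3, a co-chaperone that couples HSP70 to small heat-shock proteins and to autophagy, had the highest ratio of any member in any class with enough UMIs. This rank holds for the main settings only. Under other settings Dnaja4 reached 3.36 in neutrophil-like cells. In type 1 dendritic-like cells Hspb1 reached 2.79 and Hspa4l 2.58, while the highest for Bag3 was 2.73. The gene lies at chr7:128523616-128546981 on the plus strand of GRCm38. In macrophage-like cells it had 84.0 CPM in wild type and 493 CPM in knockout, a ratio of 2.55 (2.49 to 2.62). Endothelial-like cells had 137 and 391 CPM (1.51). Neutrophil-like cells had 20.7 and 107 CPM (2.36), where the 5 richest cells held 25.7% of the wild-type and 41.7% of the knockout UMIs and the ratio was 1.48 with thinned cells. The ratio was below 1 in mesenchymal-like cells, the class with the highest wild-type level (298 and 560 CPM, 0.91), and in NK or type 1 innate lymphoid-like cells (47.5 and 87.7 CPM, 0.88). Bag1, the other member of its family, had ratios from -0.30 to 0.28, and in macrophage-like cells 122 CPM in wild type and 101 CPM in knockout (-0.27, -0.34 to -0.19).

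The difference in Bag3 was seen in the number of cells as well as in the sum. Each cell was thinned to 1000 UMIs, since depth differed between the libraries. After thinning, 7.19% of 2337 wild-type macrophage-like cells (6.17% to 8.31%) and 26.9% of 2332 knockout ones (25.1% to 28.8%) had a Bag3 UMI. Before thinning the shares were 33.7% and 71.4%, at median depths of 9106.5 and 11721.5 UMIs. Free RNA can give a UMI to a cell that does not make it, and no class is known to lack Bag3. The lowest thinned share was 1.68%, in wild-type neutrophil-like cells (median depth 2382 UMIs), and 4.48% in knockout ones (2864.5 UMIs). For Hsph1 the thinned shares in macrophage-like cells were 21.4% in wild type and 54.9% in knockout.

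**Figure D2:**
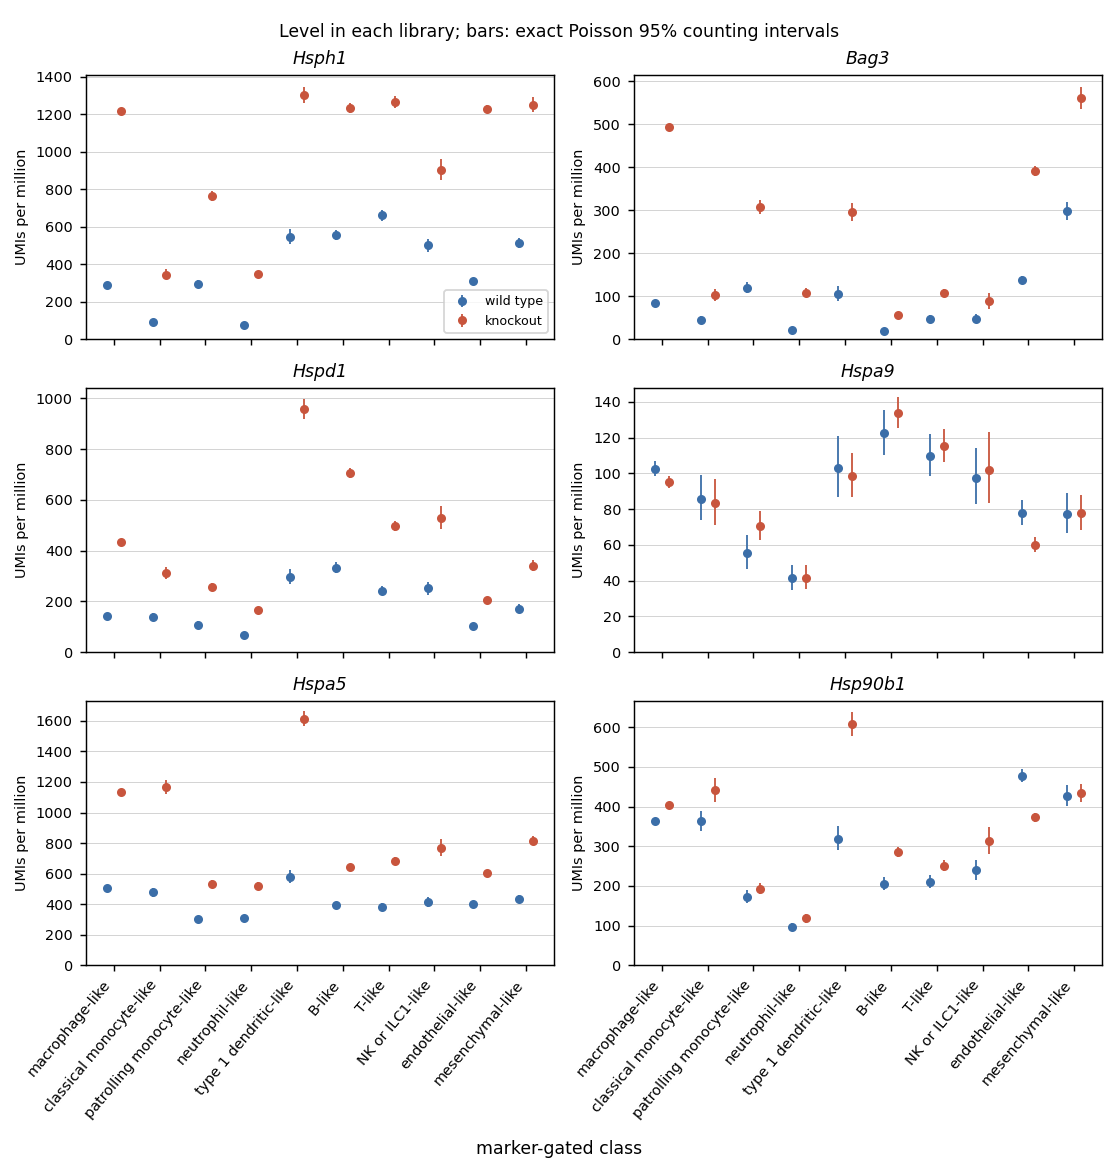
CPM of Hsph1, Bag3, Hspd1, Hspa9, Hspa5 and Hsp90b1 in the 10 classes, in wild type (blue) and knockout (red), with exact Poisson 95% counting intervals. Hsph1, Bag3, Hspd1 and Hspa5 were higher in knockout in every class, Hspa9 points overlap in most classes, and Hsp90b1 was lower in knockout in endothelial-like cells (478 and 373).

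The small heat-shock proteins showed a strong difference between cell classes. Hspb1 had 381 CPM in wild-type mesenchymal-like cells and from 20.4 to 74.8 CPM in the other 9 classes. It was 905 CPM in knockout mesenchymal-like cells (ratio 1.25, 1.14 to 1.35). In macrophage-like cells it went from 64.9 to 188 CPM (1.54, 1.46 to 1.62, or 2.20 without the deepest 5% of cells), and in type 1 dendritic-like cells from 28.2 to 118 CPM (2.04, on 40 and 303 UMIs, or 2.79 with a stricter gate). Few cells held many of its UMIs: in macrophage-like cells the 5 richest had 36.6% of the wild-type and 10.8% of the knockout UMIs. In classical monocyte-like cells (49 and 154 UMIs, ratio 1.78) the 5 richest knockout cells had 46.8% of the UMIs. With a looser gate that needs a lead of 1 marker the ratio there was -0.96, and with cells thinned to 1000 UMIs it was -0.18, so no direction is read from it in that class. In NK or type 1 innate lymphoid-like cells its ratio of 0.75 was -0.28 with thinned cells.

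Cryab, which encodes alpha B-crystallin, had its highest level in mesenchymal-like cells. It had 281 UMIs in wild-type mesenchymal-like cells (112 CPM) and 262 in knockout ones (82.7 CPM), a ratio of -0.43 (-0.68 to -0.19). Elsewhere its level was at most 9.55 CPM in either library. The intervals of its ratio held 0 in the other 8 classes where it had enough UMIs. Of the wild-type mesenchymal-like cells 58.1% had a Cryab UMI, beside 1.39% of T-like cells, which are not known to make it, at median depths of 12149 and 5707 UMIs, and after thinning in 9.95% and 0.596%. Hspb8 had enough UMIs in macrophage-, endothelial- and mesenchymal-like cells only, with ratios between -0.79 and -0.06 whose intervals held 0.

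**Figure D3:**
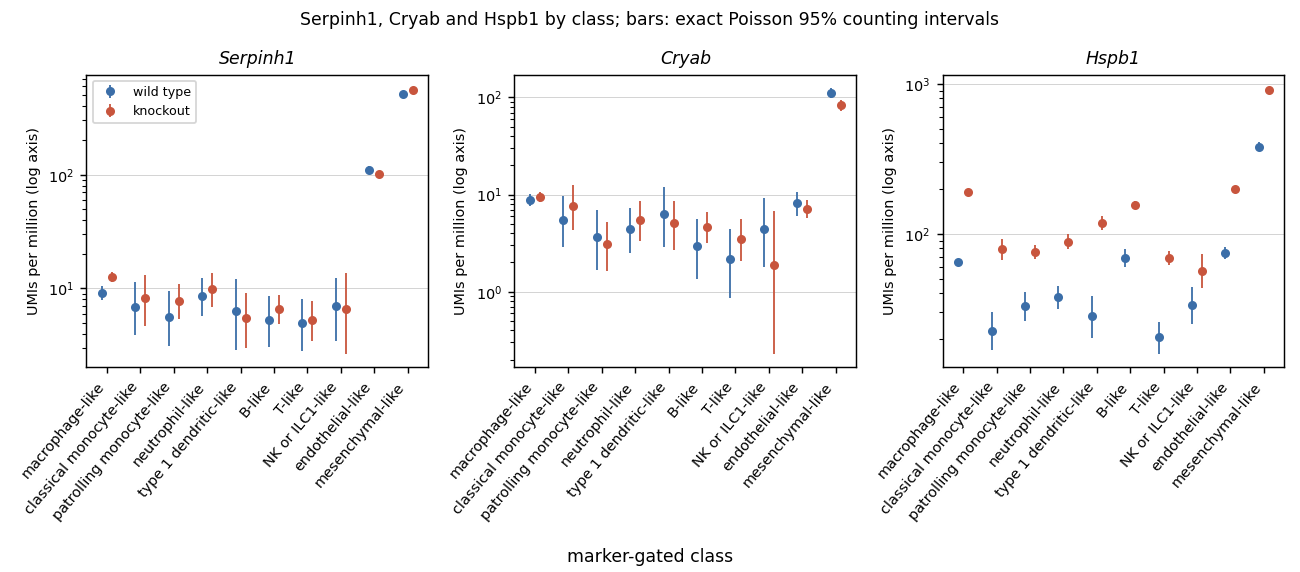
CPM on a log axis of Serpinh1, Cryab and Hspb1 in the 10 classes, in wild type (blue) and knockout (red), with exact Poisson 95% counting intervals. Mesenchymal-like cells had the highest level of each gene, and Hspb1 was higher in knockout in all 10 classes, with a turn of direction in classical monocyte-like (-0.96 with a looser gate, -0.18 thinned) and NK or type 1 innate lymphoid-like cells (-0.28 thinned), while Serpinh1 and Cryab were lower in some.

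The 3 mitochondrial members differed from each other. Hspd1, the HSP60 ring of the chaperonin, had 144 CPM in wild-type and 434 CPM in knockout macrophage-like cells, a ratio of 1.59 (1.54 to 1.64). It was at least 2-fold higher in 9 classes, and in mesenchymal-like cells just under that, at 0.98 (172 and 340 CPM, or 0.42 with thinned cells). In 5 of these 9 classes, other settings gave less than 2-fold. The lowest ratio was 0.89 in classical monocyte-, 0.99 in B-, 0.93 in T- and in NK or type 1 innate lymphoid-, and 0.95 in endothelial-like cells. All 9 pairs of a mitochondrial gene and a class past 2-fold were those of Hspd1. Its ratios lay in a narrow band, from 0.98 to 1.25, in 8 classes, and reached 1.69 in type 1 dendritic-like cells (297 and 957 CPM).

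Hspe1, the HSP10 lid that closes the HSP60 ring, was also higher in knockout in all 10 classes, except that its ratio in mesenchymal-like cells (0.28) was -0.47 with thinned cells. Its ratio was lower than that of Hspd1 in each class. In macrophage-like cells it had 267 and 497 CPM (0.89, 0.85 to 0.94), in endothelial-like cells 179 and 240 CPM (0.42), and in NK or type 1 innate lymphoid-like cells 338 and 407 CPM (0.27). Exons of Hspe1 and Hspd1 overlap on opposite strands. Hspa9, the mitochondrial HSP70 (mortalin), had 103 CPM in wild-type and 95.3 CPM in knockout macrophage-like cells, a ratio of -0.11 (-0.19 to -0.03) that was 0.02 with thinned cells. Its interval held 0 in 7 classes, was above 0 in patrolling monocyte-like cells (55.4 and 70.8 CPM, 0.35) and below 0 in endothelial-like cells (78.1 and 60.1 CPM, -0.38).

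In the ER, Hspa5 stood apart from the other 5 members. It had 509 CPM in wild-type and 1135 CPM in knockout macrophage-like cells, a ratio of 1.16 (1.13 to 1.19). It was at least 2-fold higher also in classical monocyte-like cells (479 and 1166 CPM, 1.28) and in type 1 dendritic-like cells (580 and 1613 CPM, 1.47). These 3 pairs were all the pairs of an ER member and a class past 2-fold. The knockout level was higher in every class, with the lowest ratio in endothelial-like cells (402 and 603 CPM, 0.58).

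Hsp90b1, the HSP90 of the ER, had 363 and 404 CPM in macrophage-like cells (0.16, 0.12 to 0.20). Its largest ratio was in type 1 dendritic-like cells (319 and 608 CPM, 0.93), and in endothelial-like cells it was lower in knockout (478 and 373 CPM, -0.36, -0.42 to -0.29). Dnajc3 and Dnajb11, J-domain partners of BiP, were lower in knockout in the same endothelial-like cells, at -0.31 (169 and 136 CPM) and -0.52 (57.9 and 40.4 CPM). Dnajb9 there had 75.9 and 74.8 CPM (-0.02). Over the classes the ratios of these 3 genes lay between -0.52 and 0.67.

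Serpinh1 encodes HSP47, the ER chaperone of collagen. It had 517 CPM in wild-type mesenchymal-like cells and 554 CPM in knockout ones, a ratio of 0.10 whose interval held 0. Endothelial-like cells had 111 and 101 CPM (-0.14) and the other 8 classes between 4.95 and 12.7 CPM in either library. Its thinned share was 34.3% of wild-type and 43.0% of knockout mesenchymal-like cells, against 0.199% and 0.785% of T-like cells, which are not known to make it. In macrophage-like cells it had 222 and 377 UMIs (0.47, 0.23 to 0.72), and the 5 richest knockout cells held 24.9% of the knockout UMIs. With the looser gate that ratio was -0.04.

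The heat-shock factors themselves did not share the high ratios of the chaperones. Hsf1, the main regulator of the cytosolic response, had 12.0 CPM in wild-type and 13.9 CPM in knockout macrophage-like cells (0.20, -0.01 to 0.43). Its interval held 0 in 9 classes, the exception being mesenchymal-like cells (30 and 61 UMIs, 0.67, 0.04 to 1.37). Hsf2 had 198 and 261 UMIs in macrophage-like cells (0.10, -0.17 to 0.38). In classical monocyte-like cells it had 47 and 19 UMIs (21.7 and 9.70 CPM, -1.12, -2.01 to -0.36), and the ratio was -0.99 with the looser gate and -0.53 with thinned cells. These are RNA counts, and the activity of the factors was not measured.

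**Figure D4:**
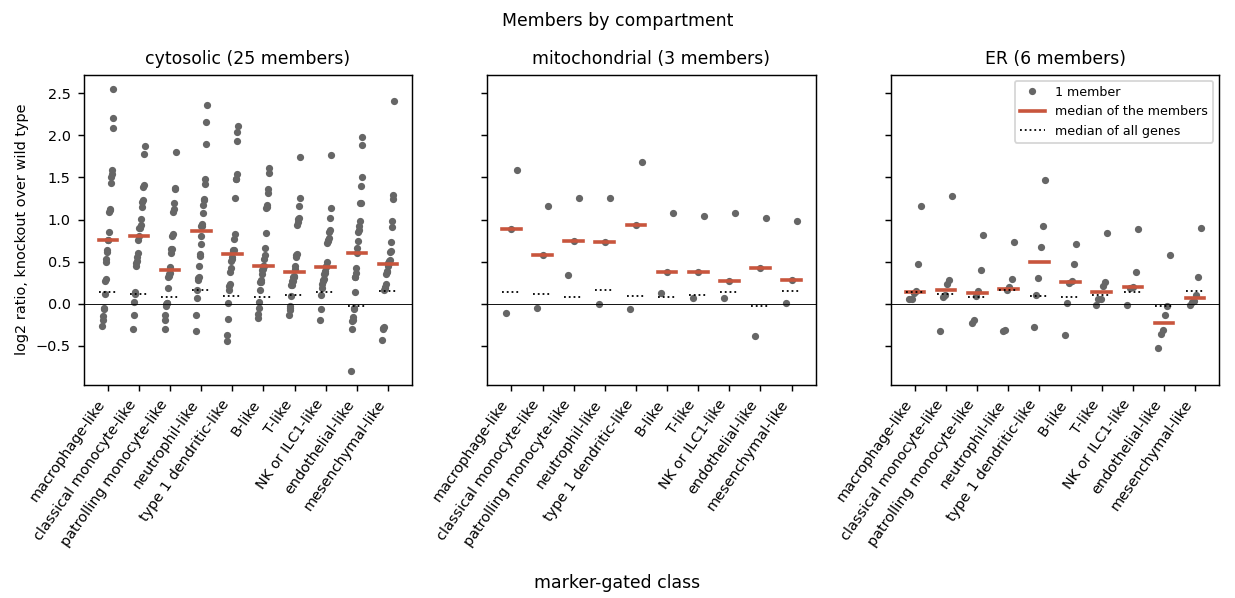
Log2 ratio of each member (grey points) by class, in separate panels for the 25 cytosolic, 3 mitochondrial and 6 ER members, with the median of the members (red line) and the median of all genes of the class (dotted line). The cytosolic median lay between 0.38 and 0.86 in the 10 classes and the ER median between -0.22 and 0.49.

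Set side by side, the compartments differed in how many members were 2-fold higher and in how uniform they were. Of 241 pairs of a cytosolic member and a class, 64 were at least 2-fold higher, of 30 mitochondrial pairs 9, of 59 ER pairs 3, and of 20 pairs of a heat-shock factor none. Without Hspb1 in classical monocyte-like cells the cytosolic count was 63. Over all genes 5.39% of 113437 pairs were at least 2-fold higher and 1.62% at least 2-fold lower, so the ER count was near the share of all genes. The median of the cytosolic members was highest in neutrophil-like cells (0.86) and lowest in T-like cells (0.38). The mitochondrial median ran from 0.27 in NK or type 1 innate lymphoid-like cells to 0.93 in type 1 dendritic-like cells. The ER median was -0.22 in endothelial-like cells, where that of all genes was -0.03, and 0.49 in type 1 dendritic-like cells, where that of all genes was 0.09. The cytosolic and mitochondrial medians were above the median of all genes in all 10 classes, and the ER median in 8. In some of these 8 the ER margin was small: 0.145 beside 0.139 in macrophage-like cells and 0.177 beside 0.166 in neutrophil-like cells. Sums over members gave another order in some classes. The summed ER ratio exceeded the cytosolic one in type 1 dendritic-like (1.13 and 0.65) and T-like cells (0.51 and 0.43). It also did in NK or type 1 innate lymphoid-like cells (0.60 and 0.48). In the same order of classes the ER medians (0.49, 0.14 and 0.20) were below the cytosolic ones (0.60, 0.38 and 0.44). Hspa5 had the highest ratio of the ER members there (1.47, 0.84 and 0.89). In the other classes the summed ER ratio was below the cytosolic one, and it was lowest in endothelial-like cells (0.04 and 0.86).

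Over the 36 members, 11 were at least 2-fold higher in 3 or more classes: Hspa1a, Hspa1b, Hspa4l, Hsph1, Hspb1, Dnaja1, Dnaja4, Dnajb1, Bag3, Hspd1 and Hspa5. Of all genes with enough UMIs in at least 3 classes, 3.79% were. In all, 15 members reached 2-fold in at least 1 class and 21 in none, against 23.5% of all genes with enough UMIs in a class that reached it. Of the 11, 7 had the heat-shock element core in a window (Hspa1a, Hspa1b, Hsph1, Hspb1, Dnaja1, Dnaja4 and Hspd1), and of the 19 other members with a window 3 did (Dnajb4, Dnajb6 and Hspe1). Of all genes 14.5% did. These counts are not independent. The stretches of Hspa1a and Hspa1b are identical at 149 of 150 bases. Hspd1 and Hspe1, on either side of the split, share the same matches. The longer form of the element was in windows of 1 of the 11 (Hspd1) and of 2 of the 19 others (Dnajb6 and Hspe1). The ER element was in 1 of the 11 (Hspa5) and in 2 of the 19 others (Hsp90b1 and Dnajc3). For these 2 motifs the split thus did not favour the 11 as it did for the core. Members without the core in these windows include Bag3, Dnajb1 and Hspa4l. For the windows of Bag3 and Dnajb1, the 40 bases after the start were in no GENCODE transcript of the gene. The same holds for the Dnaja1 window with the core, so these starts are less certain.

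The cytosolic genes were also counted together in single cells. After thinning to 1000 UMIs, the median macrophage-like cell held 8 UMIs of the 25 cytosolic members in wild type and 18 in knockout. The 10th and 90th percentiles were 3 and 18 in wild type and 7 and 33 in knockout. Cells with 20 or more such UMIs made up 7.06% of the wild-type and 45.1% of the knockout class. Both ends of the distribution thus lay higher in knockout. The medians were 5 and 10 in endothelial-like cells, 7 and 14.5 in classical monocyte-like cells, 12 and 18 in B-like cells and 12 and 15 in T-like cells. Neutrophil-like cells had the lowest, 3 and 5.

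**Figure D5:**
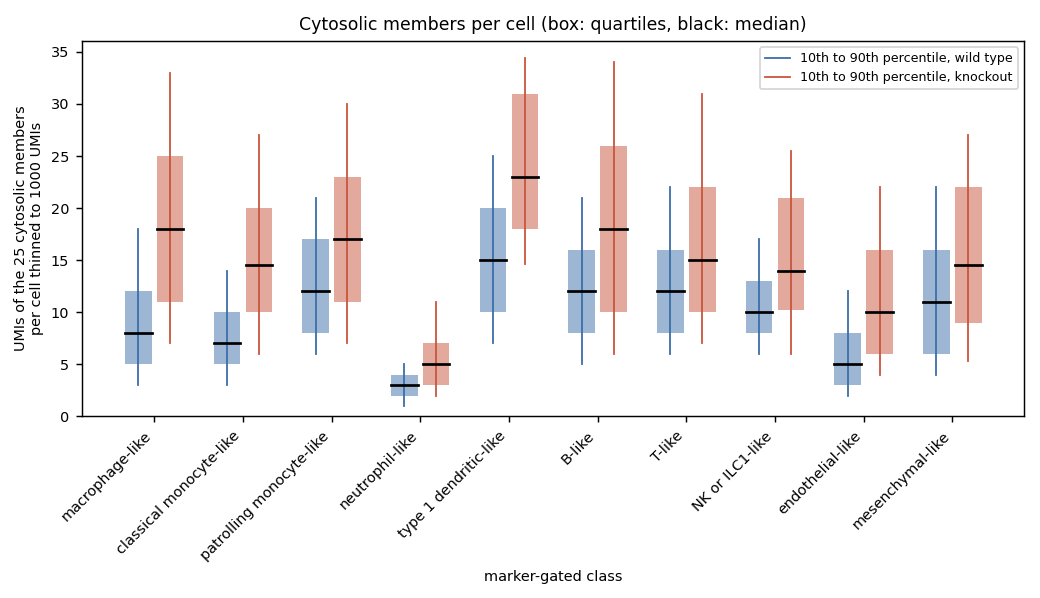
UMIs of the 25 cytosolic members per cell thinned to 1000 UMIs, by class, in wild type (blue) and knockout (red). Boxes span the quartiles, black lines are medians and thin lines run from the 10th to the 90th percentile. In macrophage-like cells the median was 8 in wild type and 18 in knockout.

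Genes of the same pathways that are no members were read from 5 lists, to be read against the 5.39% of all pairs that were 2-fold higher and the 1.62% that were 2-fold lower. No list was above the first share. Of 170 pairs of another cytosolic chaperone (17 genes, with the 8 subunits of the chaperonin TRiC, the HSP90 co-chaperones Ptges3 and Cdc37 and the ubiquitin ligase Stub1) and a class, none was 2-fold higher or lower. In macrophage-like cells their median was 0.08, from Stub1 (-0.43) to Ptges3 (0.27).

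Other known targets of heat-shock factor 1 (7 genes) had 2 of 70 pairs at least 2-fold higher, Dedd2 in macrophage-like cells (1.01) and Zfand2a in classical monocyte-like cells (1.12), and none 2-fold lower. Their median in macrophage-like cells was 0.22, with Ier5 the lowest at 0.12. Over the 10 classes their median was above that of all genes in 8. Ratios ran from 0.32 to 1.12 for Zfand2a, from 0.19 to 0.95 for Cacybp, from -0.02 to 1.01 for Dedd2 and from -0.60 to 0.15 for the ubiquitin gene Ubb. Zfand2a, Cacybp and Ubb were singled out after their values were seen. Among 7 other mitochondrial chaperones and proteases 1 of 70 pairs was past 2-fold, and the macrophage-like median was -0.06, from Clpp (-0.36) to Clpx (0.38).

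Other ER chaperones and genes of the unfolded protein response (19 genes) had 3 of 190 pairs at least 2-fold higher and none 2-fold lower. In macrophage-like cells their median was 0.04, from Xbp1 (-0.41) to Atf6 (0.49), beside the 1.16 of Hspa5. In endothelial-like cells it was -0.39, and 16 of the 19 were below 0. In type 1 dendritic-like cells it was 0.39, and 16 of the 19 were above 0. Immediate early genes (15 genes, which respond within a short time to many stimuli) had 0 of 150 pairs past 2-fold in either direction. Their median in macrophage-like cells was 0.09, from Ier3 (-0.40) to Btg2 (0.63), and over the classes it ran from -0.14 to 0.26. Their sum in macrophage-like cells was 28130 and 32260 CPM (0.20). Single genes differed in both directions. Intervals were above 0 in all 10 classes for Atf3 (0.34 to 0.69), in 9 for Btg2 and in 8 for Fos, Fosb and Jun. They were below 0 in all 10 for Ier2, in 9 for Dusp1 and in 8 for Junb and Ier3. These genes, the extremes apart, were singled out after their values were seen.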

How the data were processed

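Raw UMI counts per gene and barcode were deposited for both libraries. Per the file headers the authors' count software was Cell Ranger 7.0.1, while the submitters' processing notes name Cell Ranger 3.1.0, Seurat and mm10. The annotation, the strand and intron rules and any earlier cell filter are not given in the sources used here. The lowest total per barcode was 500 UMIs in both libraries.

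Barcodes under 200 genes or over 20% mitochondrial UMIs (413 in wild type, 149 in knockout) were dropped. A cell entered a class when at least 3 markers of the class had a UMI and led every other of 17 marker lists by at least 2. Of these lists 10 gave a class of at least 50 cells in each library. Cells with markers of 2 classes (26.8% of wild-type and 27.9% of knockout cells) were kept out of the classes in place of a doublet caller. A difference in names from those of the study may come from this gate. Between 18.4% and 67.5% of the cells of a class lay near its limit.

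UMIs were summed per class and library (Python 3.11.15, numpy 2.4.6, scipy 1.17.1, pandas 2.3.3). Intervals are exact Poisson for CPM, exact conditional for ratios and Clopper-Pearson for shares, all at 95%. The ratio step was run on simulated counts that held counting error only. That run checks the computation and says nothing of variation between cells or libraries. Of the gene identifiers, 99.8% are in GENCODE M21, which was used for exon overlaps and for the position of Bag3, and promoter windows are from RefSeq on GRCm38.p6.

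The members, the gene lists and the markers were chosen with earlier results of these data known. Values in both libraries were to be given for members at least 2-fold higher or lower in 3 or more classes, for the member nearest the median of each compartment, for 13 members set by name, and for the highest and lowest gene of each list in macrophage-like cells. The alternatives were 2 other gates, another cell filter, the deepest cells left out, means over cells, thinning, 2 other scalings, the richest cells left out and 2 other minimum counts.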

Additional observations from a re-analysis of the deposited data

How the results depend on the processing

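With 1 library per genotype no library could be left out. No paired analysis was possible because each genotype has 1 library and no test was made. The compartment medians were recomputed in macrophage-, endothelial- and B-like cells. The cytosolic median of macrophage-like cells (0.76) was 0.68 with a gate that needs a lead of 1 marker, 0.85 without the deepest 5% of cells, 0.62 when the median of all genes was set to 0, and 0.70 with totals that leave out mitochondrial, ribosomal protein and haemoglobin genes. Their mitochondrial median (0.89) was 0.83, 0.75 and 0.84 with the first, the third and the fourth of these, and their ER median (0.14) was 0.0054 with the third. The mitochondrial median was 0.53 in endothelial-like cells thinned to 1000 UMIs (0.42) and 0.29 in B-like cells with the other totals (0.38). The other medians stayed inside the counting interval of the member or members in the middle of the main order. No interval of a median itself was computed.

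Of the named members, 73 pairs of a gene and a class were at or past 2-fold, and 611 of their 657 values under the alternatives still were. The direction turned in 1 pair, Hspb1 in classical monocyte-like cells (1.78), to -0.96 with the lead of 1 marker and to -0.18 with thinned cells. Of the 1206 alternative values of the 134 pairs under 2-fold, 50 were past it and 90 had the other sign. Among them were Hspa1b (-0.06 with CPM averaged over cells, -0.04 thinned) and Hspe1 (-0.47 thinned) in mesenchymal-like cells and Hspb1 in NK or type 1 innate lymphoid-like cells (-0.28 thinned). Depth limits what can be said of members with few UMIs in the smaller classes (Dnaja4, Hspb8, Hsf1 and Hsf2).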

Other observations

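Cells without a class numbered 4108 in wild type and 4568 in knockout, of which 3044 and 3556 held markers of 2 classes. In them 6 of 36 members were at least 2-fold higher in knockout, against 5.13% of all genes. Hsph1 had 331 CPM in wild type and 999 CPM in knockout, a log2 ratio of 1.59 (1.56 to 1.63). Bag3 had 91.9 and 266 CPM (1.53, 1.48 to 1.59), Hspd1 206 and 492 CPM (1.26) and Hspa5 505 and 1028 CPM (1.03). Hspb1 stood at 193 and 258 CPM, a ratio of 0.42 (0.38 to 0.47). This was below its ratio in each of the 10 classes under the main settings. Other settings gave ratios as low as -0.96 in classical monocyte-like and -0.28 in NK or type 1 innate lymphoid-like cells. Hsp90b1 stood at 365 and 435 CPM (0.25, 0.22 to 0.29) and Hspa9 at 112 and 111 CPM, beside a median ratio of all genes of 0.09.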
